A study of Homo sapiens with 6 samples.

Results

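The cell-encoded machinery of RNA interference and microRNA silencing was followed through 10 genes (AGO1, AGO2, AGO3, AGO4, DICER1, DROSHA, DGCR8, XPO5, TARBP2 and TNRC6A), taken by symbol from the 62703 gene IDs of the count tables because the duplexes transfected in this study depend on part of this machinery. All 10 were found and all 10 were among the 16929 genes that passed the filter on low counts. RNA came from SEM, an established human B-cell acute lymphoblastic leukaemia (B-ALL) line with a KMT2A::AFF1 fusion. Total RNA of 6 libraries was compared, 3 per group: in KD the cells were given 2 DsiRNAs (Dicer-substrate short interfering RNAs) aimed at the junction of AK_8_2, a circular RNA of the fusion, and in NC a purchased DsiRNA that targets nothing. Both groups carry the same fusion and both were transfected with the same lipid reagent on 2 occasions 24 h apart, so every library comes from cells loaded with duplexes. Cells without a duplex were not analysed here, and KD against NC therefore compares the target of the duplex, not its presence. Gene counts do not measure AK_8_2 itself, so the knockdown was not checked here. The labels number the replicates without saying that they are separate cultures, so p-values measure the spread between these libraries, which may be technical.

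In the canonical pathway a primary microRNA transcript is cut in the nucleus by the Microprocessor, which consists of the RNase III enzyme DROSHA and its RNA-binding partner DGCR8. XPO5 (exportin 5) carries the hairpin to the cytoplasm, where DICER1 trims it to a short duplex with the help of a double-stranded RNA-binding partner such as TARBP2. An Argonaute protein keeps one strand as a guide, and TNRC6 proteins connect Argonaute to the enzymes that shorten and decay the target messenger RNA. A DsiRNA enters at the DICER1 step and needs neither DROSHA nor XPO5. Of the Argonautes, AGO2 is the one known for cutting a fully matched target.

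The libraries held 14750579 to 26694160 gene counts each, and the 10 genes had from 303 counts (TARBP2 in NC replicate 1) to 8493 counts (DICER1 in NC replicate 3). Replicate 1 of both groups stood apart, with 48.6% and 50.03% of records outside annotated genes where the remaining 4 libraries had 11.3% to 17.3%, and in KD replicate 3 multiply aligned records made up 31.5%, against at most 17.3% elsewhere. The B-cell label fitted the markers: the summed level of 11 B-cell precursor genes was 1470 to 2046 CPM (gene counts scaled to a common library total), led by PAX5, although DNTT, RAG1 and BLNK were near 0 outside replicate 1. Markers of T, myeloid, epithelial or fibroblast and endothelial cells were low apart from TRAC, CSF1R, PDGFRB and PECAM1, and 6 erythroid markers summed to at most 0.314 CPM outside replicate 1 and 3.16 CPM within it. In replicate 1 genes at or near 0 elsewhere had more (EGFR had 4.03 CPM in KD and 3.25 CPM in NC, and the endothelial gene VWF 13.2 and 10.4 CPM). The lowest of the 10 genes there was TARBP2, at 17.9 and 18.2 CPM, and the part of this signal in the members' replicate 1 values was not tested.

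Per length, the transcripts of the RNase III enzymes were the most abundant of the 10 and AGO3 the least. Levels between genes were compared as CPM per kilobase of annotated exon. DICER1 (ENSG00000100697.17, chromosome 14, 95086228 to 95158010, minus strand, GRCh38) stood at 27.1 ± 3.20 CPM per kb (SD, n = 3) in NC, higher than 90.4% of the tested genes. DROSHA (ENSG00000113360.17, chromosome 5, 31400497 to 31532196, minus strand) followed at 19.9 ± 1.73, AGO4 at 14.7 ± 2.32, DGCR8 at 12.2 ± 2.77 and XPO5 at 11.1 ± 2.50 (SD, n = 3 each). AGO2 stood at 8.81 ± 1.56, TNRC6A at 8.23 ± 0.976, AGO1 at 7.32 ± 0.881, TARBP2 at 5.52 ± 1.11 and AGO3 at 2.54 ± 0.484 CPM per kb, the last higher than 41.4% of tested genes. The highest level was thus 10.7 times the lowest. In bulk RNA, fewer cells with a transcript and less of it per cell cannot be told apart.

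**Figure D1:**
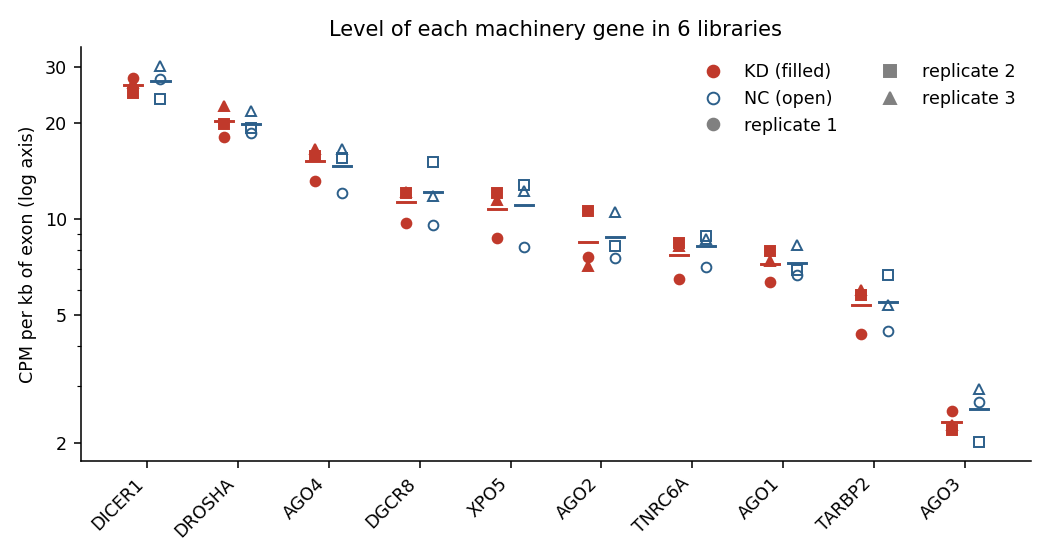
Level of each of the 10 genes as CPM per kb of exon (log axis) in KD (filled) and NC (open), with 1 symbol per replicate number and a bar at the mean of each group. DICER1 lies at 23.8 to 30.2 and AGO3 at 2.00 to 2.95 in all 6 libraries. For every gene shown the KD and NC ranges overlap. The share over all tested genes was not computed, so the overlap is no result particular to these genes.

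The ranges of neighbours over the 3 NC libraries did not overlap between DICER1 and DROSHA, DROSHA and AGO4, AGO1 and TARBP2, or TARBP2 and AGO3. Ranges did overlap for AGO4 and DGCR8, DGCR8 and XPO5, XPO5 and AGO2, AGO2 and TNRC6A, and TNRC6A and AGO1. DGCR8 was above XPO5 in 4 of 6 libraries and AGO2 above TNRC6A in 4 of 6, and every other neighbour kept its place in 6 of 6. The annotation bears on the order: with the longest transcript as the length, DROSHA stood at 29.2, DGCR8 to 19.0, XPO5 to 17.6, TNRC6A to 12.6 and TARBP2 to 12.1 CPM per kb. AGO4, at 15.04, then came after XPO5, and TARBP2 passed both AGO2 (9.56) and AGO1 (7.42), while DICER1 and DROSHA stayed first and AGO3 last.

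The Argonaute transcripts were a mixture in which AGO4, not the slicing AGO2, had the largest part per length. AGO4 (ENSG00000134698.11), AGO1 (ENSG00000092847.14) and AGO3 (ENSG00000126070.20) lie head to tail on the plus strand of chromosome 1, at 35808172 to 35857890, 35869808 to 35930528 and 35930718 to 36072500 (GRCh38), with 11917 bases between the first pair and 189 bases between AGO1 and AGO3. AGO2 (ENSG00000123908.12) is on the minus strand of chromosome 8. In NC, AGO4 made up 44.1% ± 2.98 of the summed CPM per kb of AGO1 to AGO4, AGO2 26.3% ± 1.13, AGO1 22.0% ± 0.993 and AGO3 7.66% ± 1.52 (SD, n = 3 each). These shares do not depend on library size or scaling, but they do rest on the annotated lengths. In CPM, without division by length, AGO2 was above AGO4 in NC (139 ± 24.8 against 107 ± 16.9, SD, n = 3 each). They describe messenger RNA, not the amount of each protein or its load of small RNA.

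**Figure D2:**
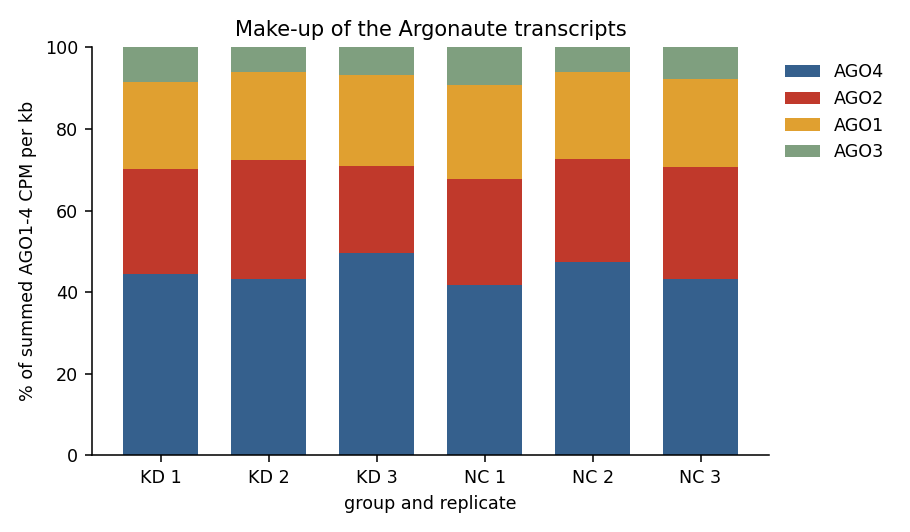
Share of AGO4, AGO2, AGO1 and AGO3 in the summed AGO1 to AGO4 level (CPM per kb, stacked to 100%) in each of the 6 libraries. AGO4 is the largest part in all 6, at 41.7% to 49.6%, and AGO2 ranges from 21.4% in KD replicate 3 to 29.2% in KD replicate 2.

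The make-up of the Argonautes did not differ detectably between KD and NC. AGO2 took 25.6%, 29.2% and 21.4% in the KD libraries (replicates 1, 2 and 3) against 26.1%, 25.3% and 27.5% in those of NC. Both the highest and the lowest AGO2 share were therefore KD libraries. The mean difference was -0.921 percentage points (exact two-sided permutation test over 3 against 3 libraries, p = 0.8, adjusted p = 1 over 10 shares and ratios, where the smallest p this design allows is 0.1). AGO4 took 45.7% ± 3.44 in KD, 1.69 points above NC (exact permutation p = 0.6). AGO1 and AGO3 differed by -0.190 and -0.575 points (exact permutation p = 0.9 and 0.6), and AGO3 was the one Argonaute whose share was lower in KD within all 3 replicate numbers.

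None of the 10 genes passed the test between KD and NC. With edgeR's quasi-likelihood test, 0 of the 10 had an adjusted p under 0.05 (Benjamini-Hochberg over all 16929 genes) and 0 had an unadjusted p under 0.05, against a background of 0.0% called among all genes. The estimates were small: log2 fold changes (KD over NC) ran from -0.13 for AGO3 to 0.04 for AGO4, 8 were below 0 and 2 above, and the median was -0.04 against -0.00 over all genes tested. Treating the replicate number as a block, which called 24 genes higher and 5 lower over the whole table (0.142% and 0.0295%, or 0.171% in all), also called 0 of the 10, with 0 at an unadjusted p under 0.05. The test without the block keeps differences between replicate numbers in its spread. It gave an unadjusted p under 0.05 for 52 of 16929 genes, against 841 with the block, so its 0 calls say little. The SEs below are from the test without the block unless stated. KD and NC libraries overlapped for all 10. The share of all tested genes that do so was not computed, so this count is no result particular to the 10.

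The width of the intervals says what could have been missed. Without the block the 95% intervals of all 10 genes stayed within 1.5-fold up or down, as did 50.7% of all tested genes. With the block 9 of 10 did, against 66.6% of all genes, and the exception was AGO2. For AGO2 the limits were -0.50 and 0.39 without the block but -1.09 and 0.97 with it. The narrowest blocked intervals belonged to DROSHA (from -0.08 to 0.12), DICER1 (from -0.14 to 0.07) and TNRC6A (from -0.20 to 0.01).

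**Figure D3:**
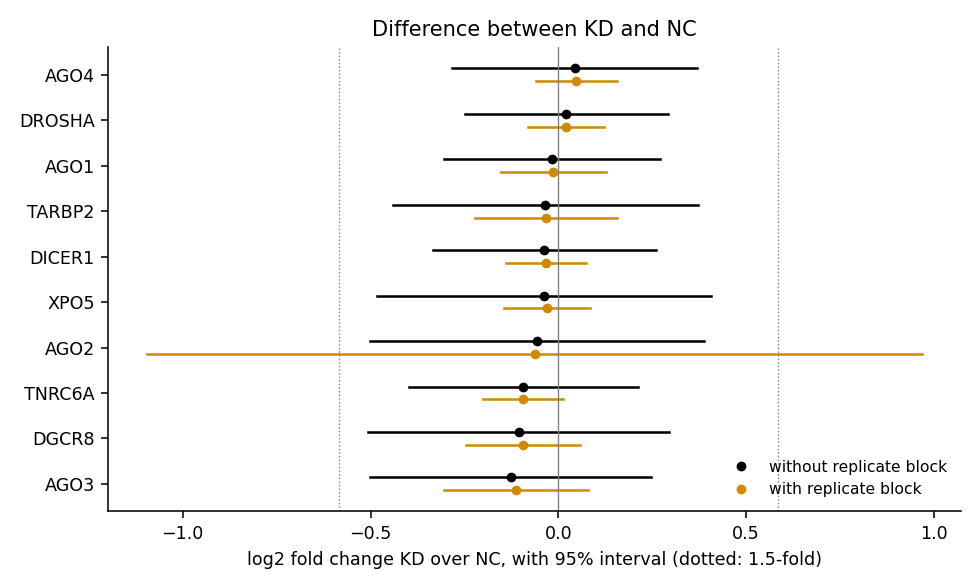
Log2 fold change KD over NC of each gene with its 95% interval, without (black) and with (orange) the replicate number as a block, and dotted lines at a 1.5-fold change. All points lie between -0.13 and 0.05, and the blocked AGO2 interval, from -1.09 to 0.97, is the one that crosses the dotted lines.

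Of the Microprocessor, DROSHA was the steadier member. In the order of replicates 1, 2 and 3, used throughout, DROSHA had 141, 155 and 177 CPM in KD and 144.5, 151 and 170.3 CPM in NC, so replicate 3 was the highest and replicate 1 the lowest in both groups. Its log2 fold change was 0.02 (SE 0.11, edgeR quasi-likelihood adjusted p 1.00), with within-replicate differences (log2 CPM, KD minus NC) of -0.03, 0.04 and 0.05. DGCR8 (ENSG00000128191.17, chromosome 22, 20080232 to 20111877, plus strand) had 71.3, 88.2 and 88.8 CPM in KD and 70.3, 110.5 and 86.6 CPM in NC. NC replicate 2 was high and the other libraries differed little within a replicate number, which gave differences of 0.02, -0.32 and 0.04 and a log2 fold change of -0.11 (SE 0.17). DGCR8 is also a known target of its own enzyme, since hairpins in its messenger RNA can be cut by the Microprocessor; 9.58% of its exon bases are shared with exons of TRMT2A and 3 other annotated genes, including MIR1306 and MIR3618. TRMT2A lies on the opposite strand, and whether the counting used strand is not given. The ratio of DROSHA to DGCR8 did not differ detectably, at 0.84 ± 0.103 (SD, n = 3) for KD and 0.73 ± 0.326 (SD, n = 3) for NC on the log2 scale of CPM per kb (exact permutation p = 0.8).

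XPO5, the exporter of the hairpins, differed more between replicate numbers than between KD and NC. XPO5 (ENSG00000124571.18, chromosome 6, 43522330 to 43576075, minus strand) had 74.4, 103 and 98.1 CPM in KD and 69.9, 109 and 104.2 CPM in NC. Replicate 1 was low in both groups, and over both groups it lay 0.52 below the other 4 libraries on the log2 scale, the largest such gap among the 10. Of the 10 genes, 8 were lower in replicate 1, while AGO3 (0.15) and DICER1 (0.07) were higher. The fold change of XPO5 was -0.04 (SE 0.19), and 4.08% of its exon bases are shared with POLR1C on the opposite strand.

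Transcripts for the dicing step, which the transfected duplexes pass through, did not differ detectably between KD and NC. DICER1 had 340, 306 and 328 CPM in KD and 337, 292 and 371 CPM in NC. Replicate 2 was the lowest in both groups and NC replicate 3 the highest. Its log2 fold change was -0.04 (SE 0.13, edgeR quasi-likelihood adjusted p 1.00), with differences of 0.01, 0.07 and -0.18 within the replicate numbers. TARBP2 (ENSG00000139546.11, chromosome 12, 53500921 to 53506431, plus strand), the partner of DICER1 that helps to load Argonaute, had 17.9, 23.7 and 24.6 CPM in KD and 18.2, 27.3 and 22.1 CPM in NC. KD was the lower library in replicate 2 and the higher in replicate 3, and the log2 fold change was -0.03 (SE 0.17). PRKRA, a paralog of TARBP2 that also binds DICER1, was more abundant than TARBP2 per length (13.7 ± 2.37 against 5.52 ± 1.11 CPM per kb in NC, SD, n = 3 each), with a log2 fold change of -0.05 (SE 0.14). DICER1 relative to DROSHA differed by -0.05 and relative to TARBP2 by -0.00 on the log2 scale (exact permutation p = 0.8 and 1).

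Among the Argonautes, AGO2 varied most within replicate numbers. AGO2 had 120.4, 169 and 113 CPM in KD and 120, 131 and 167 CPM in NC. KD replicate 2 and NC replicate 3 were high and the other 4 libraries lay between 113 and 131 CPM. The differences were 0.00, 0.36 and -0.57 in replicates 1, 2 and 3, a spread of 0.93 and the widest of the 10, around an estimate of -0.06 (log2 fold change, SE 0.19, edgeR quasi-likelihood adjusted p 1.00). With the block and without replicate 2, AGO2 was called lower in KD (log2 fold change -0.30, SE 0.07, edgeR quasi-likelihood adjusted p 0.00862), in a fit that called 0.243% of 29982 genes lower. The 2 replicates behind that call differed by 0.00 and -0.57, so it rested on replicate 3, and without replicate 3 the blocked estimate was 0.20 and not called. The SE of 0.07 does not reflect the gap between those 2 values, since this fit takes its spread largely from other genes. Of the 10 genes the blocked fit called 0 without replicate 1 (background 0.0184% higher, 0.0122% lower and 0.0306% in all), 1 without replicate 2 (0.153% higher, 0.397% in all) and 0 without replicate 3 (0.244% in all).

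AGO1 and AGO3 followed the direction of AGO2 in replicates 2 and 3, and AGO4 did not. AGO1 had 88.4, 110.2 and 103 CPM in KD and 93.2, 96.1 and 116 CPM in NC, with differences of -0.08, 0.20 and -0.17 and a log2 fold change of -0.02 (SE 0.12). AGO3 had 53.2, 46.4 and 48.0 CPM in KD and 56.5, 42.4 and 62.4 CPM in NC. NC replicate 3 was again high, the differences were -0.09, 0.13 and -0.38, and the log2 fold change was -0.13 (SE 0.16). AGO4 had 96.0, 114 and 120.5 CPM in KD and 88.0, 113 and 120.4 CPM in NC. Its differences were 0.12, 0.02 and 0.00, above 0 in all 3 replicates but close to 0 in replicates 2 and 3, and its log2 fold change was 0.04 (SE 0.14).

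TNRC6A, the effector that bridges Argonaute to the deadenylases, was lower in KD by a small amount in each replicate without passing the test. TNRC6A (ENSG00000090905.19, chromosome 16, 24610209 to 24827632, plus strand) had 84.2, 109 and 106 CPM in KD and 91.9, 115 and 113 CPM in NC. The differences were -0.13, -0.08 and -0.08, the narrowest spread of the 10. The unblocked log2 fold change was -0.09 (SE 0.13, edgeR quasi-likelihood adjusted p 1.00). The blocked one was -0.09 as well (SE 0.05, edgeR quasi-likelihood unadjusted p 0.0792). TNRC6A and AGO4 were the 2 of 10 genes that kept one direction in all 3 replicates, as did 25.7% of all tested genes.

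The paralogs of TNRC6A behaved unlike it within replicates. TNRC6B had 166, 209.7 and 169.9 CPM in KD and 167, 149 and 262 CPM in NC, so that KD was higher by 0.49 in replicate 2 and lower by 0.62 in replicate 3 on the log2 scale, the same directions as AGO2. With the block and without replicate 3 it was called higher in KD (0.25, SE 0.06, edgeR quasi-likelihood adjusted p 0.0376, in a fit that called 0.157% of 29966 genes higher), on replicates that differed by -0.00 and 0.49. That SE, too, rests largely on other genes and not on the gap between these values. With all 6 libraries its log2 fold change was -0.08 (SE 0.22) and not called. TNRC6C, the least abundant of the 3 at 2.82 ± 0.190 CPM per kb in NC (SD, n = 3), had a log2 fold change of -0.05 (SE 0.10). TNRC6A made up 39.5% ± 2.91 (SD, n = 3) of the summed TNRC6 level per length in KD against 40.3% ± 5.95 (SD, n = 3) in NC (exact permutation p = 0.8).

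The direction of these within-replicate differences went with transcript length. The 4 members whose longest annotated transcript exceeds 10 kb, AGO1, AGO2, AGO3 and DICER1, were all higher in KD in replicate 2 and lower in KD in replicate 3. Of the 6 shorter members 0 did so, and 2, DGCR8 and TARBP2, did the opposite. The split depends on the cut, since DICER1 (10331 bases) lies just above it. Outside the 10, TNRC6C (9740 bases) lies just below the cut and had the pattern of the long members (0.14 and -0.25). TNRC6B (18279 bases) had it too and PRKRA (1851 bases) did not. Among protein-coding genes as a whole this pattern was also more frequent above the cut. Of 555 tested genes over 10 kb, 61.8% were higher in KD in replicate 2 and lower in replicate 3, against 23.2% of 11680 shorter genes.

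The sizes were likewise shared with other long transcripts, AGO2 and TNRC6B lying towards the edge. The median difference of genes over 10 kb was 0.01, 0.10 and -0.20 in replicates 1, 2 and 3, and that of genes under 2 kb 0.04, 0.03 and 0.07. Within the long class AGO1, at 0.20 and -0.17 in replicates 2 and 3, had percentiles of 69.9 and 55.3, and DICER1 of 42.7 and 54.6. AGO2 had percentiles of 90.1 and 9.19 and TNRC6B of 95.7 and 6.67. Over 12235 protein-coding genes the correlation of log2 length with the difference was -0.05, 0.05 and -0.16 in replicates 1, 2 and 3 (Pearson, across genes that share their libraries). KD replicate 3 is the library with 31.5% of records aligned to several places. The part of transcript length or of this library in the AGO2 values was not tested.

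**Figure D4:**
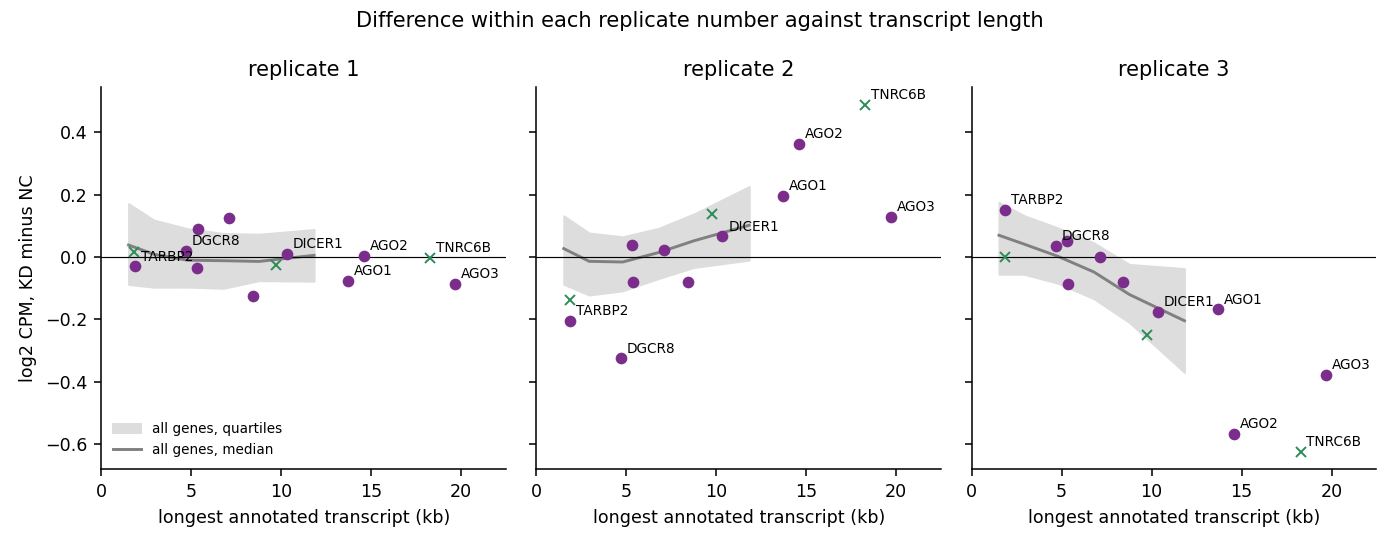
Difference in log2 CPM (KD minus NC) within replicates 1, 2 and 3 against the longest annotated transcript in kb, for the 10 genes (circles) and for PRKRA, TNRC6B and TNRC6C (crosses), with the median and quartiles of tested protein-coding genes by length class in grey. In replicate 2 the long transcripts lie above 0 (AGO2 at 0.36) and in replicate 3 below it (AGO2 at -0.57), while in replicate 1 AGO2 (0.00) and TNRC6B (-0.00) lie at 0.

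Over the 6 libraries the genes fell into different patterns. DGCR8, XPO5, TARBP2 and TNRC6A varied together (Pearson correlations of log2 CPM from 0.87 to 0.97), and DICER1 and AGO3 varied together (0.96), while DICER1 and DGCR8 ran opposite (-0.60). These correlations rest on 6 libraries, of which both replicate 1 libraries stand apart, and are a description only. The tested genes whose log2 CPM was most like that of AGO2 were RC3H1 (0.99), ACVR2B (0.98) and PHC3 (0.97), all with a longest transcript over 10 kb. For DICER1 they included TMOD3 (0.9976) and RAPGEF2 (0.9953), and for DROSHA they were TBC1D22A (0.9985), STRADB (0.9977) and SART3 (0.99). In all, 420 genes correlated with DROSHA above 0.9, 132 with DICER1 and 78 with AGO2.

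Beyond the core, 118 genes on 8 lists were examined. With all 6 libraries 0 of the 113 tested were called, with or without the block. Of all 16929 genes 0.0% were called without the block and 0.171% with it. The 0 calls of each list below are near that share and are no result particular to these genes. The lists were Microprocessor partners, nuclear transport, Dicer partners and other double-stranded RNA-binding proteins, loading of the silencing complex, effectors of silencing, small RNA tailing and decay, Argonaute modification, and microRNA host transcripts. Their median log2 fold changes ran from -0.05 to 0.04, against -0.00 over all genes tested.

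Genes for loading Argonaute include the chaperones that open it, and none was called. Of 15 tested genes for loading and passenger-strand removal, 14 had an estimate above 0 and 1 below, with a median of 0.04, where 48.6% of all tested genes were above 0. The median was below 0 without KD replicate 2 (-0.022), KD replicate 3 (-0.049) or NC replicate 1 (-0.00069). In the blocked fit with both libraries of replicate 1, 2 or 3 left out it was 0.051, 0.034 and 0.028. HSP90AB1, a cytosolic HSP90 chaperone, was the most abundant at 598 ± 106 CPM per kb in NC (SD, n = 3) and had a log2 fold change of 0.04. HSP90AA1, its inducible counterpart, had 463 ± 15.6 in NC and 496 ± 7.36 in KD (SD, n = 3 each, log2 fold change 0.10, SE 0.12, edgeR quasi-likelihood adjusted p 1.00). With the block HSP90AA1 was the 1 gene of the 15 with an unadjusted p under 0.05 (edgeR quasi-likelihood p 0.0313, adjusted p 0.966), where 841 of 16929 tested genes had one. The co-chaperone FKBP4 was the one below 0 (-0.21, SE 0.37).

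The effectors of silencing, which cover the CCR4-NOT and PAN2-PAN3 deadenylases, the decapping enzymes and their helpers, also had 0 calls. Of 31 tested genes 24 had an estimate below 0 and 7 above, with a median of -0.03, where 51.4% of all tested genes were below 0. The median was above 0 without KD replicate 1 (0.063), NC replicate 2 (0.017) or NC replicate 3 (0.051). In the blocked fit with both libraries of replicate 1, 2 or 3 left out it was -0.014, -0.055 and -0.021. PABPC1, the cytoplasmic poly(A)-binding protein, was the most abundant at 630 ± 94.5 CPM per kb in NC (SD, n = 3) and had a log2 fold change of 0.02. The decapping cofactor DCP1B had the smallest p of those above 0, at 3.62 ± 0.384 CPM per kb in NC and 4.23 ± 0.0694 in KD (SD, n = 3 each, log2 fold change 0.22, SE 0.11, edgeR quasi-likelihood unadjusted p 0.0871). CNOT10, a subunit of CCR4-NOT, had the smallest p of those below 0 (-0.08, SE 0.08). With the block, 2 of the 31 had an unadjusted p under 0.05, as did 841 of all 16929 tested genes. DCP1B was 1 of these 2 (edgeR quasi-likelihood unadjusted p 0.0272, adjusted p 0.919). The other, CNOT4, had the smaller p and was also above 0 (blocked log2 fold change 0.19, edgeR quasi-likelihood unadjusted p 0.0109, adjusted p 0.740).

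Among the partners of the nuclear steps, 0 genes were called. Among 13 Microprocessor partners, 5 were above 0 and 8 below (median -0.00), with the RNA-binding protein gene HNRNPA1 the most abundant at 562 ± 82.3 CPM per kb in NC (SD, n = 3, log2 fold change 0.07), HNRNPR at 0.05 and the DEAD-box helicase DDX17 at -0.09. Of 7 nuclear transport genes 2 were above 0 and 5 below (median -0.05). RAN, the GTPase that exportin 5 needs to bind its cargo, had 128 ± 14.3 CPM per kb in NC (SD, n = 3) and a log2 fold change of 0.05, and the exportin XPO1 one of -0.08.

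No cytoplasmic RNA-binding, tailing or Argonaute-modifying gene on the lists was called. Of 7 Dicer partners and double-stranded RNA-binding genes, 2 were above 0 and 5 below (median -0.04). They included the RNA helicase DHX9 at -0.04, STAU2 at -0.13 and EIF2AK2, the kinase PKR that senses double-stranded RNA, at 0.03. Of 11 tailing and decay genes 2 were above 0 and 9 below (median -0.02), with the nuclear exonuclease XRN2 at 0.03 and DIS3L2, which degrades uridylated RNA, at -0.06. Of 11 tested Argonaute modification and stability genes (13 on the list), 7 were above 0 and 4 below (median 0.01), with P4HB, a subunit of the prolyl hydroxylase that modifies AGO2, at 0.06 and FXR1 at 0.05.

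**Figure D5:**
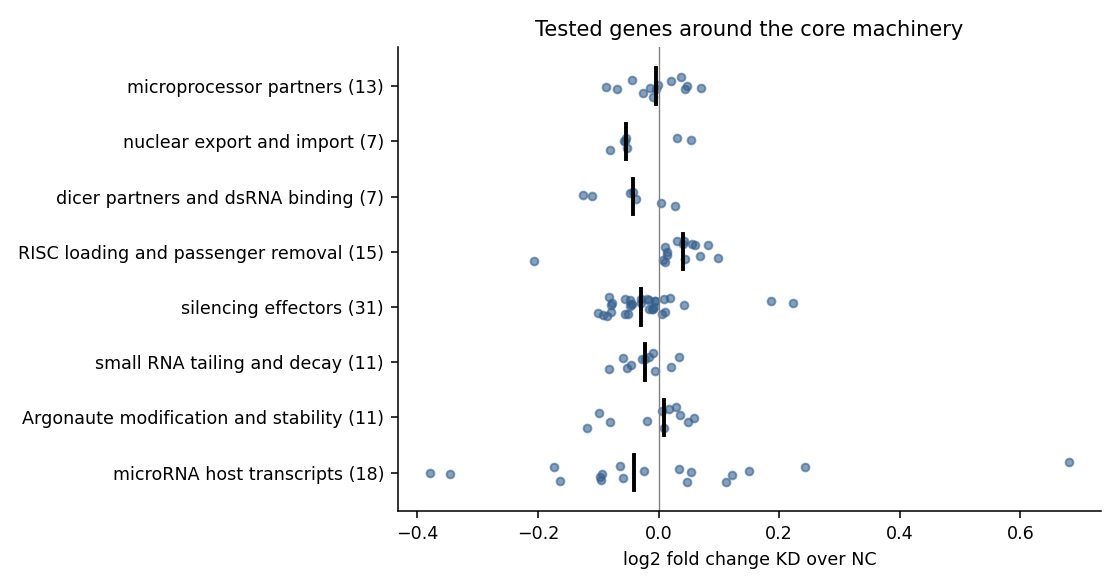
Log2 fold change KD over NC of each tested gene (points) and the median (bar) of 8 lists around the core machinery, with the number tested in brackets and points spread vertically for legibility. Medians lie between -0.05 and 0.04, and the widest scatter is among microRNA host transcripts.

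Gene counts do not measure mature microRNAs, so the substrates of the machinery were followed through their host transcripts. Mature microRNAs of MCM7, SMC4, MIR142HG, MIR181A1HG and MIR155HG are shown because each carries a seed, in capitals (bases 2 to 8), that sets its target family. Sequences are from RefSeq (GRCh38.p14), 5′ to 3′, and 9 are shown.
miR-93-5p: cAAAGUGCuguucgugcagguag
miR-106b-5p: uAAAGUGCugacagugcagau
miR-25-3p: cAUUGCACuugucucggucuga
miR-15b-5p: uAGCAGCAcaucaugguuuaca
miR-16-5p: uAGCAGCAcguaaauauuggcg
miR-142-3p: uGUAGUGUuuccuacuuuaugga
miR-181a-5p: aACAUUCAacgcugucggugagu
miR-181b-5p: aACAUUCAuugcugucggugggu
miR-155-5p: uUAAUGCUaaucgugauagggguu

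In these sequences miR-93-5p and miR-106b-5p share a seed, as do miR-15b-5p and miR-16-5p, and miR-181a-5p and miR-181b-5p, in each case within 1 host. On GRCh38 the first 3 lie in introns of MCM7 (chromosome 7, minus strand, between 100093571 and 100094063), and miR-15b-5p and miR-16-5p in introns of SMC4 (chromosome 3, plus strand, 160404607 to 160404775). Both miR-181 sequences lie in introns of MIR181A1HG (chromosome 1, minus strand, 198858925 to 198859130). The sequence of miR-142-3p lies in an exon of MIR142HG (chromosome 17, minus strand, 58331245 to 58331267) and that of miR-155-5p in an exon of MIR155HG (chromosome 21, plus strand, 25573983 to 25574006).

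Of 21 host transcripts 18 were tested, 8 above 0 and 10 below (median -0.04), and 0 were called. The replication helicase gene MCM7 was the most abundant at 157 ± 35.5 CPM per kb in NC (SD, n = 3, log2 fold change 0.05), followed by the condensin gene SMC4 at 84.2 ± 1.56 (0.03), DNM2 at 20.4 ± 3.06 (-0.06), MIR142HG at 12.5 ± 6.79 and MIR181A1HG at 7.15 ± 1.17 (-0.17, SE 0.15). Counts of MCM7 and SMC4 reflect their messenger RNA and not the intron that holds the hairpin.

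MIR155HG and MIR142HG had lower means in KD without passing the test. MIR155HG had 6.21, 5.22 and 6.34 CPM in KD and 8.79, 8.82 and 5.50 CPM in NC (log2 fold change -0.38, SE 0.26, edgeR quasi-likelihood unadjusted p 0.184, adjusted p 1.00). KD was lower in replicates 1 and 2 and higher in replicate 3. MIR142HG had 8.01, 15.8 and 24.5 CPM in KD and 8.97, 31.0 and 21.2 CPM in NC, with the same order and a log2 fold change of -0.35 (SE 0.50). With the block and without replicate 3 it was called lower (-0.68, SE 0.12, edgeR quasi-likelihood adjusted p 4.11e-05, in a fit that called 0.0868% of 29966 genes lower), on replicates that differed by -0.16 and -0.97. Its SE and p do not reflect the gap between these values, since the fit takes its spread largely from other genes. MIR3142HG, which hosts miR-146a, had the smallest p of those above 0 (0.15, SE 0.30).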

How the data were processed

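The authors deposited read counts (whole numbers, 1 table for each library, keyed by versioned Ensembl ID) in the layout of htseq-count. The submitters' processing notes name the build hg38 and the tools STAR 2.7.10a, HTSeq 0.11.1, FastQC 0.11.8 and DESeq2. The annotation release and strand setting are not given in these sources. In each table the 5 closing summary lines name no gene; they were left out of tests, and gene counts were 33.5% to 60.2% of records. Of 62703 IDs, 62639 matched the gene name table (a repeated symbol went to the ID with the highest mean count). Lengths and positions come from GENCODE 29 (GRCh38). edgeR 4.0.16 in R 4.3.3 was fitted to all libraries with group as the only term (filterByExpr, TMM, robust quasi-likelihood, Benjamini-Hochberg over 16929 genes, threshold 0.05). The code was run on simulated counts that had no difference between replicate numbers and the spread of the blocked fit. That run cannot say how the fit without a block performs on these libraries. CPM uses TMM-scaled totals; within-replicate differences use log2 CPM with a prior count of 2. Shares were compared by exact permutation over 20 regroupings.

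Deviations from the group means correlated at 0.89, 0.62 and 0.61 between libraries numbered 1, 2 and 3. A paired fit (replicate block) was therefore run beside the main fit, which has no block. The spread between libraries, as a coefficient of variation, was 0.372 without the block and 0.0683 with it. The paired fit is given for some results only. The labels state no pairing, and KD replicate 2 with NC replicate 3 also correlated at 0.59. The members and lists were chosen with earlier results of these data known. Named were the 10 members, PRKRA, TNRC6B and TNRC6C, and per list any called gene or else the highest level per length and the smallest p in each direction, plus the 5 highest host transcripts and the 3 genes most like AGO2, DICER1 and DROSHA. Some genes that this rule names are not reported here. Marker and overlap genes are named as background, and CNOT4 for its unadjusted p in the blocked fit. Alternatives were other scaling (RLE), no filter, DESeq2 1.42.0, limma-voom 3.58.1, the block, other lengths and left-out libraries.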

Additional observations from a re-analysis of the deposited data

How the results depend on the processing

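None of the 10 genes was called with RLE scaling, no filter, DESeq2, limma-voom, the replicate block, or any 1 library left out, and the exception among all fits was AGO2 in the blocked fit without replicate 2 (-0.30). At an unadjusted p under 0.05 the unblocked fit had 52 genes over the whole table and the blocked fit 841. The replicate block, with the numbers taken as pairs, raised the counts over all genes from 0 to 24 higher and 5 lower. With all 6 libraries the block changed the call of no member. Without the block, leaving out libraries gave 0 higher and 0 lower. With the block and 1 replicate number left out, the counts were 3 to 47 higher and 2 to 73 lower, in fits of 16344 to 29982 genes. With the longest transcript as length, NC levels became 32.3 (DICER1), 29.2 (DROSHA), 19.0 (DGCR8), 17.6 (XPO5), 12.6 (TNRC6A) and 12.1 (TARBP2) CPM per kb. With no filter the list medians were -0.034 (tailing and decay) and 0.024 (host transcripts, reversed, with more genes tested).

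The sign of every member's estimate changed in at least 1 run with a single library left out, which leaves the replicate numbers unequal between the groups. In the blocked fit with both libraries of replicate 1, 2 or 3 left out, AGO4 (0.014, 0.046 and 0.076) and TNRC6A (-0.078, -0.12 and -0.096) kept their sign. Each other member changed sign at least once in those blocked fits. Leaving out 1 library or 1 replicate number (both libraries at once without the block was chosen after seeing the data) gave log2 fold changes of -0.14 to 0.12 (AGO1), -0.33 to 0.22 (AGO2), -0.27 to 0.027 (AGO3), -0.066 to 0.16 (AGO4), -0.12 to 0.071 (DICER1), -0.090 to 0.12 (DROSHA), -0.24 to 0.086 (DGCR8), -0.20 to 0.086 (XPO5), -0.15 to 0.14 (TARBP2) and -0.19 to 0.0083 (TNRC6A). Differences in share ran from -0.598 to 0.362 points (AGO1), -2.81 to 1.09 (AGO2), -1.34 to 0.184 (AGO3), -0.259 to 3.36 (AGO4) and -3.42 to 2.43 (TNRC6A). Differences in log2 ratio ran from -0.079 to 0.22 (DROSHA/DGCR8), -0.16 to 0.026 (DICER1/DROSHA), -0.24 to 0.15 (DICER1/TARBP2), -0.20 to 0.092 (XPO5/DROSHA) and -0.25 to 0.087 (AGO2/DICER1). List medians ran from -0.087 to 0.12 (Microprocessor partners), -0.11 to 0.045 (nuclear transport), -0.10 to 0.010 (Dicer partners), -0.049 to 0.096 (loading), -0.10 to 0.063 (effectors, 0 to 1 called higher), -0.10 to 0.029 (tailing and decay), -0.052 to 0.089 (Argonaute modification) and -0.11 to 0.077 (hosts, 0 to 1 called lower). The median of all genes was itself 0.11 without KD replicate 2, 0.10 without KD replicate 3, -0.11 without NC replicate 2 and -0.09 without NC replicate 3, in fits that test more genes. A run that leaves 1 group with 2 libraries takes its spread from the pooled fit. Blocked fits without 1 replicate number take theirs largely from other genes, so their p-values do not measure the spread of the gene itself. The cause of these changes was not tested.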
